A study of Homo sapiens with 6 samples.

Results

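The 31 genes described here mark the intestinal epithelium and its cell types: 10 transcription factors that set intestinal identity or cell fate, 10 genes of absorptive cells and their brush border, 5 mucin and goblet cell genes, 3 Paneth cell genes and 3 stem cell genes. They were chosen by name, as known intestinal genes, from the 19746 genes with a value in at least 1 library of the series, except that OLFM4, which was chosen too, had no value in any library. The choice was made with earlier results of these data known, so the shares of members called below are descriptions. RNA-Seq was run on SW480, a line from a human primary colon adenocarcinoma, in 3 groups of 2 libraries each. The control cells carried shNT, a nontargeting short hairpin RNA, and the other cells carried shPcyt2-1 or shPcyt2-2, different hairpins against PCYT2, the enzyme that makes CDP-ethanolamine for phosphatidylethanolamine. Hairpins against PCYT2 were delivered by lentivirus in the pLKO.1 vector and infected cells were selected with puromycin. The study's methods do not describe this step for shNT separately, and no group here shows cells without a hairpin. Whether a group was 1 clone or a pool was not given in the sources used here, and no source says that the 2 libraries of a group came from separate cultures, so the p-values measure only the spread between these libraries, which may be technical.

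The lining of the intestine is renewed from stem cells at the base of the crypts. CDX2, its relative CDX1, HNF4A and GATA6 keep intestinal genes active, HES1 carries the Notch signal that holds cells on the absorptive path, and ATOH1 and then SPDEF direct cells to secretory fates such as goblet and Paneth cells. Absorptive cells build a brush border of microvilli, goblet cells secrete mucus and trefoil peptides, and Paneth cells secrete defensins and lysozyme. Colon cancers keep this program to differing degrees.

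Promoters are printed first for 3 members whose levels the results turn on and which carried a known binding word of an intestinal factor. The sequences are from RefSeq (GRCh38.p14), which had an entry for 22 of the 31 members. Each runs 300 bases, from 250 before 1 RefSeq start of transcription to 50 after it, on the strand of the gene. Only 1 start was used for each gene, and the GENCODE spans of MUC13 and CDX2 given below reach further upstream than these windows. Capitals mark the word that was found. In MUC13 (chr3:124934702-124935001, minus strand) the word is TGGACTTTG, the reverse complement of the HNF4 word CAAAGTCCA, 51 bases before the start. In HNF4A (chr20:44355449-44355748, plus strand) it is the GATA word AGATAA, 26 bases before the start, and in CDX2 (chr13:27969266-27969565, minus strand) it is TTATCT, the reverse complement of the GATA word, 119 bases before the start.
MUC13: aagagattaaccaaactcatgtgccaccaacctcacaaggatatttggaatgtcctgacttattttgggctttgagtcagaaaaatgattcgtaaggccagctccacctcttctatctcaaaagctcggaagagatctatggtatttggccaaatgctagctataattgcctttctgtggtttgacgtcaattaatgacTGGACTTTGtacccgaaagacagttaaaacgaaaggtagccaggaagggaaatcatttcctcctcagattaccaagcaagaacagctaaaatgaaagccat
HNF4A: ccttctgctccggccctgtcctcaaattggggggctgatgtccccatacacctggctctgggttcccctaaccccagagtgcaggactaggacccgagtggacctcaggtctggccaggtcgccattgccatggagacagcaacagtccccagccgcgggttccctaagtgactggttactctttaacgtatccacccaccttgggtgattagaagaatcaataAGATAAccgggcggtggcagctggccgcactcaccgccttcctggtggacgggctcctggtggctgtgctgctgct
CDX2: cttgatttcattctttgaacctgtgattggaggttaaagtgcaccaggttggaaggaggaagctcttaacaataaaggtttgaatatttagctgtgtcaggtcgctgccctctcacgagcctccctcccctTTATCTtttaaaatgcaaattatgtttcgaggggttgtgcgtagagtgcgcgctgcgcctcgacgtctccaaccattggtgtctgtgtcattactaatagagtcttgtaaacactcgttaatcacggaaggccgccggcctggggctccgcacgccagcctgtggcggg
Searched on both strands, CAAAGTCCA occurred in 1 of the 22 member promoters (MUC13) and in 0.3589% of 27305 RefSeq promoters of the same length. AGATAA occurred in 3 (CDX2, HNF4A and REG4) and in 10.5% of all promoters. The CDX word CATAAA occurred in 3 (FABP1, MUC2 and REG4) and in 10.97% of all promoters. These matches describe letters in a window and do not show binding.

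PCYT2, the target, was lower with both hairpins. It measured 11.6 and 13.8 FPKM (fragments per kilobase of transcript and per unit of sequencing depth, a level that allows for gene length) in the shNT libraries, 7.11 and 7.36 with shPcyt2-1 and 6.71 and 6.18 with shPcyt2-2. Neither hairpin overlapped the controls. On the log2(FPKM + 1) scale, used for every fold change below and understating changes of low genes, PCYT2 fell by 0.73 with shPcyt2-1 and by 0.88 with shPcyt2-2 (SE 0.10; limma, adjusted p = 0.00205 and 0.00261). The libraries held values above 0 for 17102 to 17481 genes. The number of reads was not recovered from the values, so depth is unknown and no counting interval is given.

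The epithelial character of the line was plain in every library. EPCAM measured 281 and 258 FPKM in shNT, 312 and 298 with shPcyt2-1 and 308 and 275 with shPcyt2-2, and CDH1 (E-cadherin) 15.1 and 14.7, then 15.1 and 15.4, then 17.3 and 16.9 FPKM, and neither was called. KRT8, KRT18 and KRT19, the keratins of simple epithelia, were the most abundant of the marker genes, with KRT8 at 3602 and 3861 FPKM in shNT. All 3 keratins fell with shPcyt2-2, by 0.41, 0.45 and 0.44 on the log2 scale (SE 0.055, 0.055 and 0.062; limma, adjusted p = 0.00483, 0.00319 and 0.00546), calls that were lost without shPcyt2-2 replicate 1 (adjusted p from 0.053 to 0.068) or with no limit on expression (0.0685 to 0.081), and KRT8 and KRT18 have near-identical pseudogene copies with which reads could be shared. The summed level of the 5 epithelial markers was 8156 and 8713 FPKM in shNT, 8382 and 8475 with shPcyt2-1 and 6196 and 6497 with shPcyt2-2, nearly all of it the 3 keratins. Markers of other cell types were low, though 1 of them was called. PTPRC, which defines leukocytes, and COL3A1, of fibroblasts, were at 0 in all 6 libraries. The 6 fibroblast markers summed to 2.25 and 2.44 FPKM in shNT, 3.62 and 4.10 with shPcyt2-1 and 3.78 and 3.56 with shPcyt2-2, with COL1A1 or LUM the most abundant. LUM, a matrix proteoglycan, measured 0.789 and 0.863 FPKM in shNT, 2.17 and 2.24 with shPcyt2-1 and 1.37 and 1.09 with shPcyt2-2, a rise of 0.81 with shPcyt2-1 (adjusted p = 0.00192) and a value of 0.28 with shPcyt2-2 (0.117). PDGFRB, a fibroblast receptor below the limit for testing, measured 0.364 and 0.507, then 0.225 and 0.309, then 0.795 and 0.739 FPKM. The 5 immune markers summed to 17.2 to 24.4 FPKM, nearly all of it CD68, a lysosomal gene that epithelial cells also express, and the 5 endothelial markers summed to 1.24 and 1.37 FPKM in shNT, 0.952 and 1.04 with shPcyt2-1 and 0.900 and 0.791 with shPcyt2-2. CLDN5, an endothelial claudin below the limit for testing, measured 0.657 and 0.751, then 0.260 and 0.266, then 0.213 and 0.278 FPKM, lower in all 4 knockdown libraries than in both controls. The part of these markers in the changes of the members was not tested.

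The most abundant members were transcription factors, villin, a trefoil peptide and a defensin, while several genes of mature absorptive, goblet and stem cells were low or absent. KLF5 was the most abundant member (117 and 113 FPKM in shNT), followed by TFF3 (73.7 and 75.6), VIL1 (38.8 and 39.2), HNF4A (31.9 and 36.1), PHGR1 (27.8 and 31.4), ELF3 (24.3 and 26.4) and DEFA5 (19.3 and 21.996). In the mean of shNT, KLF5 stood at the 97.4 percentile and CDX2 at the 80.0 percentile of genes above 0. The shNT libraries of neighbours in this order did not overlap, with HNF4A (31.9) and PHGR1 (31.4) the closest. Of the 31 members, 24 had a value in all 6 libraries, and 19 reached the limit for testing, a mean of 0.5 FPKM over the 6 libraries. Since the limit used the mean of all libraries, a member could also pass through the group where it was high.

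The 12 members that were not tested were low or absent. GPA33, a surface antigen of colon epithelium, measured 0.154 and 0.202 FPKM in shNT, 0.286 and 0.370 with shPcyt2-1 and 0.454 and 0.262 with shPcyt2-2. MUC2, the main secreted mucin of the colon, measured 0.164 and 0.248, then 0.144 and 0.165, then 0.268 and 0.419 FPKM in the same order. The remaining 3 that were listed throughout were CDHR5, an adhesion protein of microvilli, at 0.151 to 0.372 FPKM, MYO1A, the brush border myosin, at 0.134 to 0.280 FPKM, and SMOC2, a stem cell marker, at 0.153 to 0.310 FPKM. GPA33 was higher in all 4 knockdown libraries than in both controls, MUC2 was higher than both controls with shPcyt2-2 and overlapped them with shPcyt2-1, and CDHR5 overlapped with both. SMOC2 was higher than both controls with shPcyt2-1 (0.290 and 0.310 against 0.153 and 0.228 FPKM) and overlapped them with shPcyt2-2, while MYO1A was lower than both with shPcyt2-2 (0.176 and 0.134 against 0.280 and 0.227 FPKM) and overlapped them with shPcyt2-1. The secretory regulators ATOH1 and SPDEF and the stem cell surface gene PROM1 each had a value in 2 libraries, no higher than 0.0261 FPKM. REG4, a goblet and enteroendocrine gene, was listed in shNT replicate 1 alone (0.0254 FPKM), FABP1, a fatty acid carrier of absorptive cells, in shNT replicate 2 alone (0.415 FPKM), and SLC26A3, the colonic chloride and bicarbonate exchanger, in shPcyt2-2 replicate 2 alone (0.00666 FPKM). OLFM4, a marker of crypt stem cells, was listed in none.

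**Figure D1:**
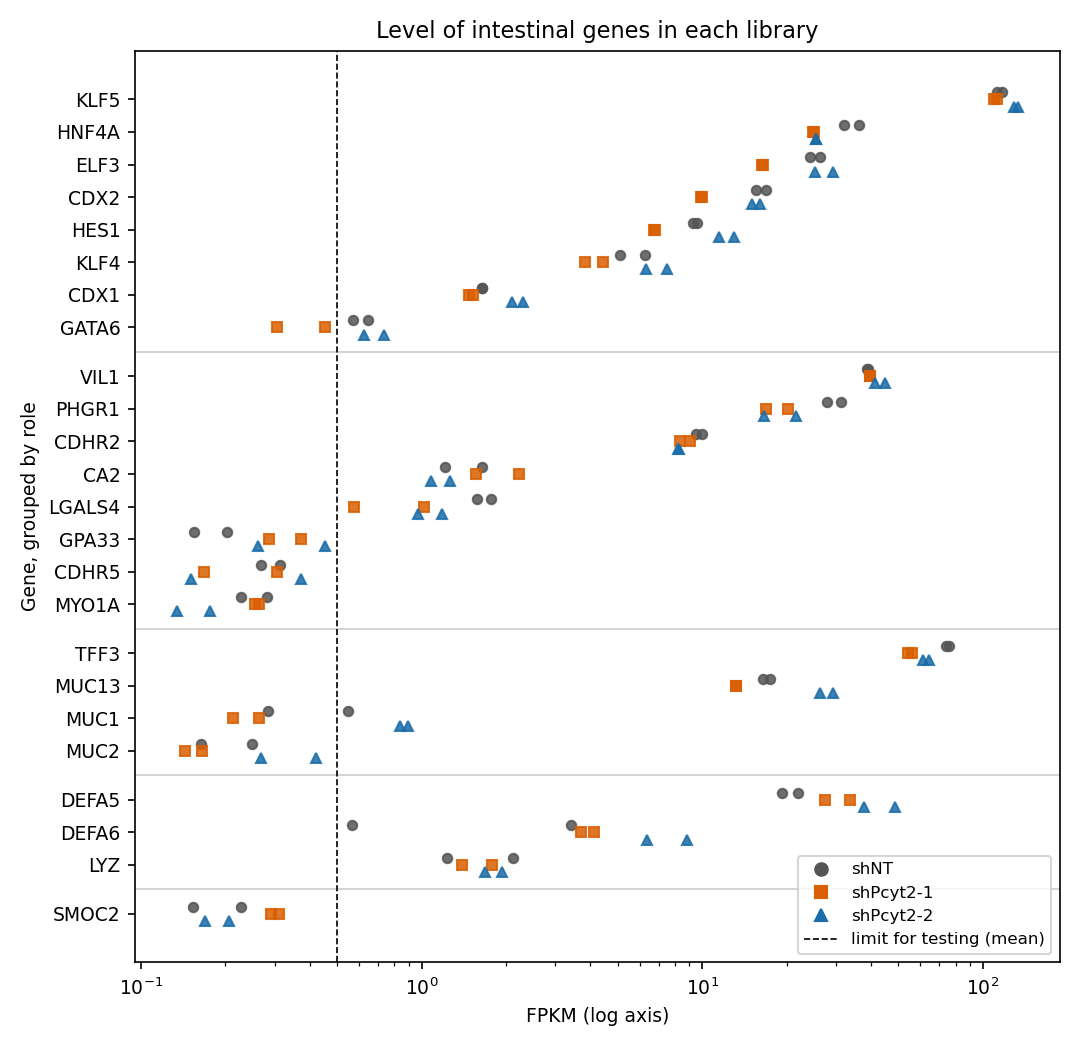
Level of the 24 members that had a value in all 6 libraries, in FPKM on a log axis, 1 point a library, grouped from top to bottom as transcription factors, absorptive and brush border, mucin and goblet, Paneth and stem cell genes; the dashed line is the 0.5 FPKM that the mean had to reach for testing. KLF5 lies farthest right at 110.0 to 133 FPKM, and 5 genes (GPA33, CDHR5, MYO1A, MUC2 and SMOC2) lie left of the line.

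With shPcyt2-1 more members fell than rose: 1 rose, 9 fell and 9 did not pass of 19 tested at an adjusted p under 0.05 (limma, adjusted over all 12756 genes tested), or 52.6%, where 26.7% of all tested genes passed (16.5% higher and 10.1% lower). With shPcyt2-2 the direction was mixed: 4 rose and 3 fell, or 36.8%, where 12.4% of all genes passed (7.69% higher and 4.74% lower). In bulk RNA, fewer cells of a type and less of a transcript per cell cannot be told apart. The median fold change of the 19 was -0.22 with shPcyt2-1 and 0.10 with shPcyt2-2, on a log2 scale, against 0.07 and 0.04 over all genes tested. DEFA5 rose with both hairpins. HNF4A, PHGR1 and TFF3 fell with both. MUC13 and HES1 fell with shPcyt2-1 and rose with shPcyt2-2. CDX2, KLF4, ELF3 and LGALS4 fell with shPcyt2-1 and were not called with shPcyt2-2, DEFA6 rose with shPcyt2-2 and was not called with shPcyt2-1, and 8 members passed with neither. Of all genes tested, 3.09% rose with both hairpins, 1.29% fell with both and 0.996% changed in opposite directions; both comparisons share the 2 shNT libraries. Across all genes the split of calls moved with scaling: 2109 higher and 1291 lower with shPcyt2-1 became 1475 and 1714 when the libraries were scaled by the median ratio, and 981 and 604 with shPcyt2-2 became 760 and 848. Some of the counts were lower without 1 library. Such a fit has 1 library left in that group and less data on spread, so a call can be lost while its value hardly moves. Without shPcyt2-1 replicate 1, 5 members and 9.1% of all tested genes were called with shPcyt2-1. With shPcyt2-2 the values were 3 members and 3.15% without shNT replicate 2, 1 member and 0.981% without shPcyt2-2 replicate 1, and 2 members and 5.51% without shPcyt2-2 replicate 2. With no limit on expression, 6 of the members called with shPcyt2-1 kept the call (CDX2, HNF4A, ELF3, MUC13, TFF3 and HES1), where 9.27% of all genes were called, and with shPcyt2-2 MUC13 alone did, where 0.628% were.

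**Figure D2:**
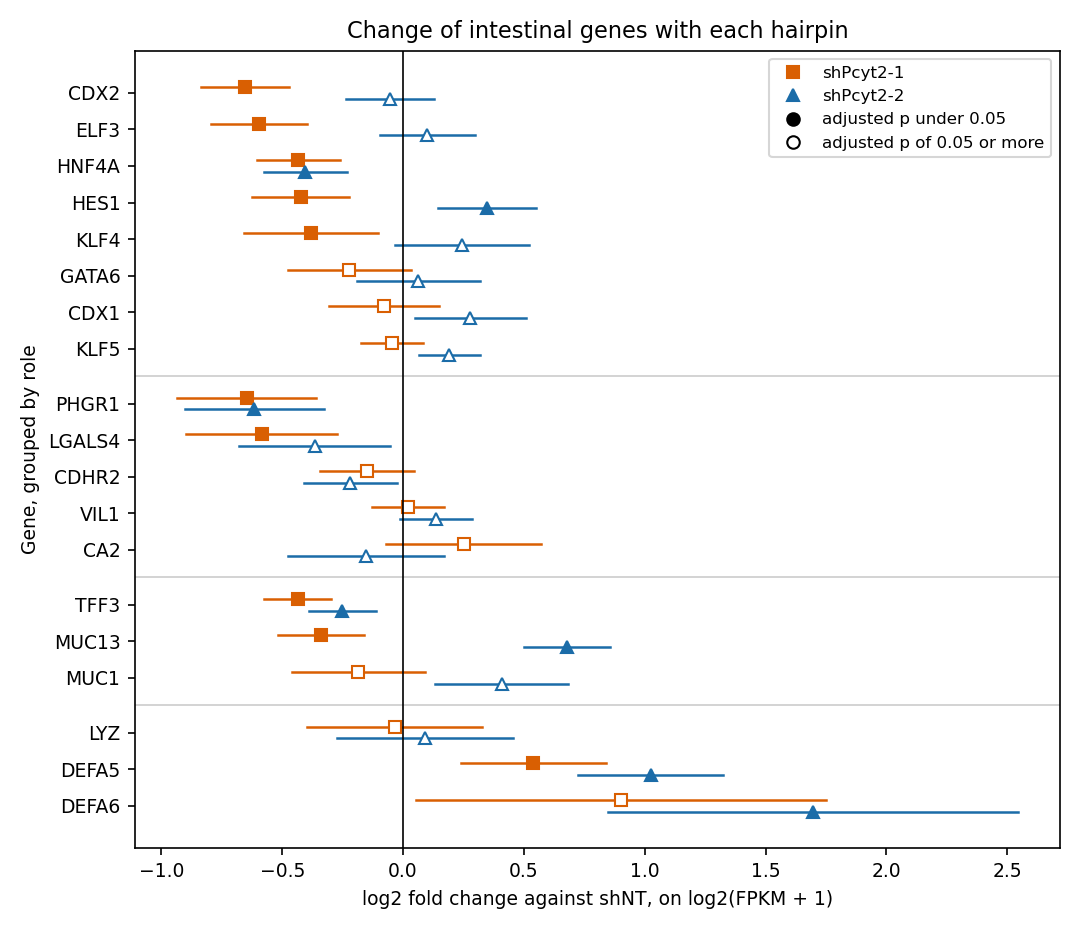
Log2 fold change of each tested member against shNT with its 95% interval, on log2(FPKM + 1), for shPcyt2-1 (squares) and shPcyt2-2 (triangles), each from 2 libraries against 2; filled symbols passed an adjusted p of 0.05. The squares of CDX2, ELF3, HES1 and KLF4 lie left of 0 and their triangles near or right of it, while HNF4A and PHGR1 have both symbols left of 0 and DEFA5 has both right of it.

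Among the transcription factors, 5 of 8 tested fell with shPcyt2-1 and none rose, and with shPcyt2-2 HES1 rose and HNF4A fell; that is 62.5% and 25% called, where 26.7% and 12.4% of all tested genes were. CDX2 (ENSG00000165556, chr13:27962137-27971139), the homeodomain factor that maintains intestinal identity, measured 15.5 and 16.9 FPKM in shNT, 10.0 and 9.88 with shPcyt2-1 and 16.03 and 15.1 with shPcyt2-2. The shPcyt2-1 libraries stood apart below all others, at 61.3% of the shNT mean, while the shPcyt2-2 and shNT libraries overlapped. CDX2 fell by 0.65 with shPcyt2-1 (SE 0.08, adjusted p = 0.00138), and with shPcyt2-2 its log2 fold change was -0.06 (95% interval -0.24 to 0.13, adjusted p = 0.677). ELF3 (ENSG00000163435, chr1:202007945-202017188), an epithelial factor of the ETS family, had the same pattern. It measured 24.3 and 26.4 FPKM in shNT, 16.5 and 16.4 with shPcyt2-1 and 25.3 and 29.4 with shPcyt2-2. ELF3 fell by 0.60 with shPcyt2-1 (SE 0.09, adjusted p = 0.00264), and its value with shPcyt2-2 was 0.10 (95% interval -0.10 to 0.30, adjusted p = 0.465). Reads of the overlapping antisense gene ELF3-AS1 could not be told apart if counting did not use strand; ELF3-AS1 was listed in no library.

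HNF4A (ENSG00000101076, chr20:44355700-44434596), the nuclear receptor that drives absorptive cell genes, was lower with both hairpins by about the same amount. It measured 31.9 and 36.1 FPKM in shNT, 24.8 and 25.02 with shPcyt2-1 and 25.4 and 25.4 with shPcyt2-2. All knockdown libraries were below both controls, at 73.2% and 74.7% of the shNT mean. HNF4A fell by 0.43 with shPcyt2-1 (SE 0.08, adjusted p = 0.00505) and by 0.40 with shPcyt2-2 (adjusted p = 0.0144). The call with shPcyt2-2 was lost without shNT replicate 2 (adjusted p = 0.0605), shPcyt2-2 replicate 1 (0.0989) or shPcyt2-2 replicate 2 (0.0574).

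HES1 (ENSG00000114315, chr3:194136145-194138732), the Notch effector, moved in opposite directions. It measured 9.24 and 9.58 FPKM in shNT, 6.78 and 6.74 with shPcyt2-1 and 11.5 and 13.0 with shPcyt2-2. No 2 groups overlapped. HES1 fell by 0.42 with shPcyt2-1 (SE 0.09, adjusted p = 0.0104) and rose by 0.35 with shPcyt2-2 (adjusted p = 0.0369). The rise was lost without any 1 of the 6 libraries (adjusted p from 0.0571 without shPcyt2-1 replicate 1 to 0.129 without shPcyt2-2 replicate 2, 0.0573 without shPcyt2-1 replicate 2, 0.0823 and 0.111 without shNT replicates 1 and 2, and 0.0882 without shPcyt2-2 replicate 1) and under median-ratio scaling (0.0755), and the fall was lost without shPcyt2-1 replicate 1 (0.0599).

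KLF4, a factor of goblet and surface cell differentiation, measured 5.11 and 6.25 FPKM in shNT, 3.82 and 4.42 with shPcyt2-1 and 7.47 and 6.32 with shPcyt2-2. Its fall of 0.38 with shPcyt2-1 (SE 0.12) was close to the threshold (adjusted p = 0.0481) and was lost without shNT replicate 2 (0.246), shPcyt2-1 replicate 1 (0.257), shPcyt2-1 replicate 2 (0.0652) or shPcyt2-2 replicate 1 (0.0534). Its shPcyt2-2 value was 0.24 (adjusted p = 0.213). The other 3 tested factors passed with neither hairpin. CDX1 measured 1.64 and 1.64 FPKM in shNT, 1.47 and 1.52 with shPcyt2-1 and 2.30 and 2.10 with shPcyt2-2. GATA6 measured 0.645 and 0.569, then 0.305 and 0.452, then 0.736 and 0.624 FPKM in the same order. KLF5, which marks dividing crypt cells, measured 117 and 113, then 110.0 and 113, then 133 and 130 FPKM. CDX1 and KLF5 were higher in both shPcyt2-2 libraries than in all others, and GATA6 was lower in both shPcyt2-1 libraries than in all others. The adjusted p of KLF5 with shPcyt2-2 was 0.0567 (log2 fold change 0.19) and became 0.0413 without shNT replicate 1.

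Among the absorptive and brush border genes, 2 of 5 tested fell with shPcyt2-1, 1 fell with shPcyt2-2 and none rose with either, or 40% and 20% called, where 26.7% and 12.4% of all tested genes were. PHGR1 (ENSG00000233041, chr15:40351033-40356434), a small protein of gut epithelium, measured 27.8 and 31.4 FPKM in shNT, 20.2 and 16.9 with shPcyt2-1 and 21.5 and 16.6 with shPcyt2-2. All 4 knockdown libraries were below both controls. PHGR1 fell by 0.65 and by 0.62 (SE 0.13, adjusted p = 0.00806 and 0.0192), and the shPcyt2-2 call was lost without shNT replicate 2 (0.107), shPcyt2-2 replicate 1 (0.0512) or shPcyt2-2 replicate 2 (0.0795). LGALS4, which encodes galectin-4, a lectin of the apical membrane, measured 1.58 and 1.77 FPKM in shNT, 0.573 and 1.02 with shPcyt2-1 and 1.19 and 0.971 with shPcyt2-2. Every knockdown library was lower than both controls. LGALS4 fell by 0.58 with shPcyt2-1 (SE 0.14, adjusted p = 0.0162), a call lost without shNT replicate 2 (0.087) or shPcyt2-1 replicate 1 (0.13), and its shPcyt2-2 value was -0.37 (adjusted p = 0.11).

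VIL1, CDHR2 and CA2 did not pass the test with either hairpin. VIL1, which encodes villin, the actin bundler of the brush border, measured 38.8 and 39.2 FPKM in shNT, 39.5 and 39.7 with shPcyt2-1 and 44.7 and 41.3 with shPcyt2-2, for log2 fold changes of 0.02 (95% interval -0.13 to 0.17) and 0.14 (-0.01 to 0.29; adjusted p = 0.834 and 0.193). The first of these became -0.05 under median-ratio scaling. VIL1 shares 3045 exon bases with USP37 on the opposite strand, which averaged 1.64 FPKM. CDHR2, a cadherin that links microvilli, measured 9.47 and 10.0 FPKM in shNT, 8.32 and 9.05 with shPcyt2-1 and 8.26 and 8.19 with shPcyt2-2. All 4 knockdown libraries were below both controls, yet neither hairpin passed (adjusted p = 0.222 and 0.122). CDHR2 shares 173 exon bases with GPRIN1, also on the opposite strand, at 11.8 FPKM. CA2, a carbonic anhydrase of absorptive cells, measured 1.64 and 1.21, then 1.56 and 2.22, then 1.08 and 1.27 FPKM, with both hairpins overlapping shNT (adjusted p = 0.217 and 0.5) and the shPcyt2-2 libraries below those of shPcyt2-1.

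The goblet and mucin genes split by gene. MUC13 (ENSG00000173702, chr3:124905442-124953819), a mucin anchored in the apical membrane, measured 17.5 and 16.5 FPKM in shNT, 13.2 and 13.2 with shPcyt2-1 and 29.2 and 26.4 with shPcyt2-2. The groups were fully separated, with means at 77.7% and 164% of shNT. MUC13 fell by 0.34 with shPcyt2-1 (SE 0.08, adjusted p = 0.0152) and rose by 0.68 with shPcyt2-2 (adjusted p = 0.00285). The call of the fall was lost without shPcyt2-1 replicate 1 or replicate 2, though its log2 fold change was -0.34 in both fits. Without each library in turn the rise was 0.61 to 0.75 and passed. TFF3 (ENSG00000160180, chr21:42311667-42315651), the trefoil peptide of goblet cells, measured 73.7 and 75.6 FPKM in shNT, 54.0 and 55.9 with shPcyt2-1 and 61.0 and 64.1 with shPcyt2-2. Both hairpins lay below both controls. TFF3 fell by 0.44 and by 0.25 (SE 0.06, adjusted p = 0.00222 and 0.0313), and the shPcyt2-2 call was lost without shNT replicate 2 (0.103), shPcyt2-1 replicate 1 (0.0556) or 2 (0.0557) or shPcyt2-2 replicate 1 (0.167) or 2 (0.0674). MUC1, another membrane mucin, measured 0.283 and 0.545 FPKM in shNT, 0.212 and 0.263 with shPcyt2-1 and 0.840 and 0.894 with shPcyt2-2, and passed with neither hairpin (adjusted p = 0.282 and 0.0593).

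The largest rises among the tested members were those of the Paneth genes DEFA5 and DEFA6. DEFA5 (ENSG00000164816, chr8:7055304-7056734), an alpha-defensin, measured 19.3 and 21.996 FPKM in shNT, 33.6 and 27.4 with shPcyt2-1 and 48.9 and 37.7 with shPcyt2-2. Every knockdown library was above both controls and the shPcyt2-2 libraries were above those of shPcyt2-1, with means 1.48-fold and 2.10-fold the shNT mean. DEFA5 rose by 0.54 with shPcyt2-1 (SE 0.13, adjusted p = 0.0187) and by 1.02 with shPcyt2-2 (adjusted p = 0.00426). The first call was lost without shNT replicate 1 (0.0756) or shPcyt2-1 replicate 1 (0.0951), and the second without shPcyt2-2 replicate 1 (0.0523).

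DEFA6, its neighbour on chromosome 8 and also an alpha-defensin, measured 0.567 and 3.41 FPKM in shNT, 4.11 and 3.71 with shPcyt2-1 and 8.82 and 6.38 with shPcyt2-2. The control libraries differed from each other by more than the 2 libraries of either hairpin did. DEFA6 rose by 1.70 with shPcyt2-2 (SE 0.38, adjusted p = 0.0235), and its shPcyt2-1 value was 0.90 (adjusted p = 0.104). Without shNT replicate 1, the lower control, the shPcyt2-2 value was 0.95 (adjusted p = 0.015), and the call was lost without shPcyt2-2 replicate 1 (0.167) or replicate 2 (0.0661). The shPcyt2-1 value was 0.16 without shNT replicate 1 (adjusted p = 0.545) and 1.65, a call, without shNT replicate 2 (0.00399). DEFA5 and DEFA6 were each listed a second time with identical values under an identifier outside the primary assembly, and were counted once. LYZ, lysozyme, measured 2.11 and 1.24 FPKM in shNT, 1.39 and 1.78 with shPcyt2-1 and 1.94 and 1.69 with shPcyt2-2, groups that overlapped (adjusted p = 0.894 and 0.74).

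**Figure D3:**
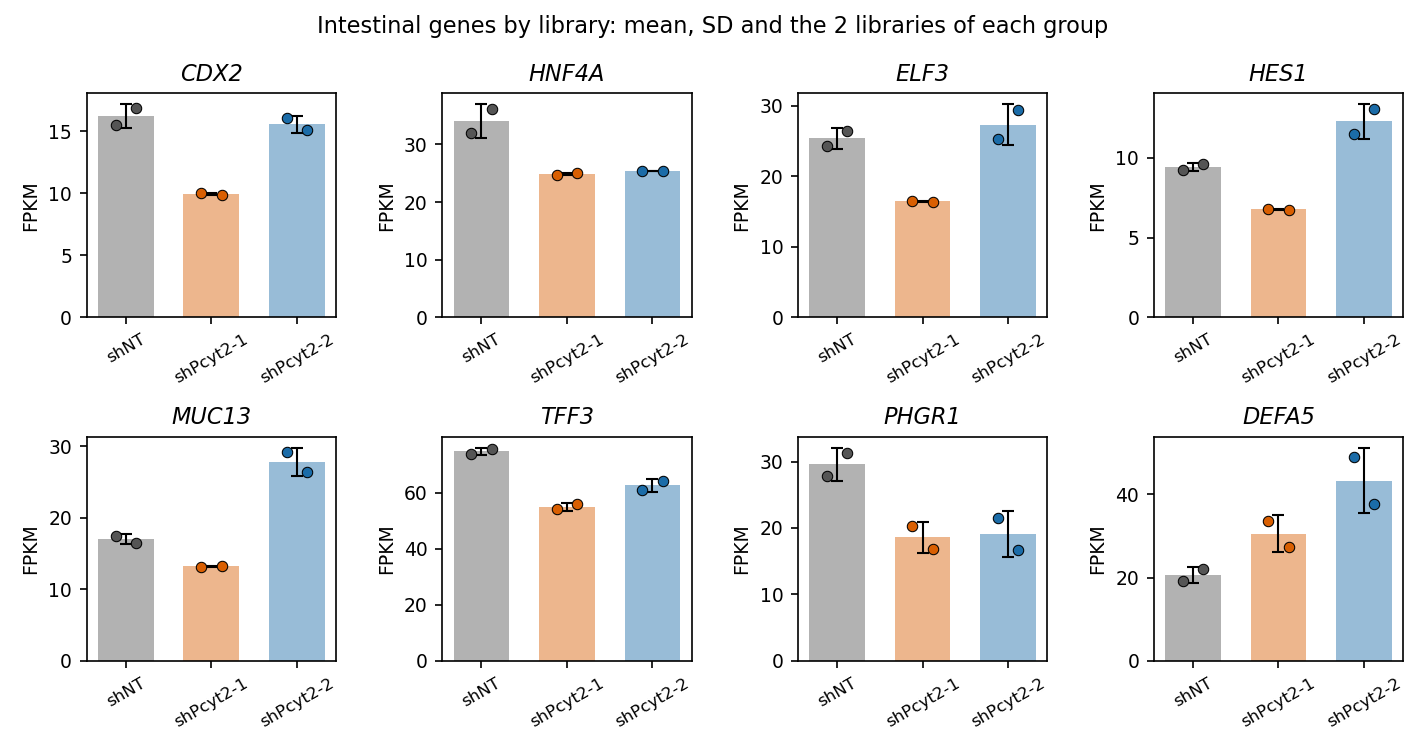
FPKM of 8 members in each group, on axes that start at 0: bars are means of 2 libraries, whiskers the SD and points the libraries. CDX2, ELF3, HES1 and MUC13 are lowest with shPcyt2-1, HNF4A and PHGR1 are similarly low with both hairpins, TFF3 is lowest with shPcyt2-1 and DEFA5 highest with shPcyt2-2.

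Setting the hairpins against each other tested whether they differed, without the shNT libraries entering the difference. Of the 19 tested members, 9 passed (47.4%, where 27.1% of all genes did), and all 9 were higher with shPcyt2-2, where 12.9% of all genes were (14.2% were lower). These counts include MUC1, which was tested only because of its shPcyt2-2 libraries. At an expression limit of 1 FPKM, which MUC1 did not reach, 8 of 17 tested members passed, all higher with shPcyt2-2 (47.1%, where 28.8% of all genes passed). The 9 were MUC13 (by 1.02 on the log2 scale, limma, adjusted p = 9.17e-05), HES1 (0.77, 0.00058), ELF3 (0.70, 0.000809), KLF4 (0.62, 0.00649), CDX2 (0.60, 0.00113), MUC1 (0.59, a description), DEFA5 (0.49, 0.0257), CDX1 (0.36, 0.0297) and KLF5 (0.24, 0.015). Thus 6 of the 8 transcription factors were among them, HNF4A and GATA6 being the others, and none of the 5 absorptive genes. The wider lists differed in direction. Of 20 other tested absorptive and brush border genes 7 were higher and 5 lower with shPcyt2-2 (60%). FXYD3 (0.79, 0.000365), TSPAN8 (0.61, 0.00204) and USH1C (0.49, 0.00152) were among the higher. The 5 lower were KRT19 (-0.50, 0.000758), KRT18 (-0.47, 0.000589), KRT8 (-0.36, 0.0021), CEACAM1 (-0.36, 0.0287) and DPP4. Of 16 other transcription factors 3 were higher and 3 lower (37.5%), and of 35 Notch pathway genes 8 were higher and 4 lower (34.3%). Of 22 other stem and progenitor genes 5 were higher and 0 lower (22.7%, beside 27.1% of all genes). Of 4 other mucin and goblet genes 2 were higher and 0 lower. CDX2, KLF4, ELF3, MUC13 and HES1 passed without each of the 6 libraries in turn. MUC1 reached the limit for testing (mean 0.506 FPKM over the 6 libraries) only through its shPcyt2-2 libraries, the group where it is high, so its difference is a description. CDX1 and KLF5 lost the call without any 1 of the 4 knockdown libraries (adjusted p up to 0.166 and 0.129), and DEFA5 without shPcyt2-1 replicate 2 (0.115) or shPcyt2-2 replicate 1 (0.167). Without shPcyt2-2 replicate 1, 5 members and 18% of all tested genes were called. With no limit on expression CDX1 (adjusted p = 0.0558) and DEFA5 (0.126) were not called.

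The members that fell with both hairpins showed small differences between them. The shPcyt2-2 value minus the shPcyt2-1 value was 0.03 for HNF4A (95% interval -0.14 to 0.20, adjusted p = 0.809), 0.03 for PHGR1 (-0.26 to 0.32, 0.884) and 0.18 for TFF3 (0.05 to 0.32, 0.0525). For PHGR1 and LGALS4 (0.22, -0.09 to 0.53) the intervals leave room for changes of a size seen elsewhere among the members. TFF3 passed without shNT replicate 1 or 2 (adjusted p = 0.0372 for each), CA2 without shPcyt2-1 replicate 1 (-0.57, adjusted p = 0.0408), and DEFA6, at 0.79 with all libraries, without shNT replicate 1 or 2 (0.00555 and 0.00602).

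With the 4 knockdown libraries taken as 1 group against shNT, no member passed in limma. In that fit 6 members had an unadjusted p under 0.05 (16.7% of all genes did), and 1 gene of 12756 (0.00784%), a gene that was lower, passed. In this fit the differences between hairpins count as spread: CDX2 had a log2 fold change of -0.35 (adjusted p = 0.42), HNF4A -0.42 (0.134), PHGR1 -0.63 (0.142), TFF3 -0.34 (0.172) and DEFA5 0.78 (0.172). Taking the mean of both hairpins in the 3-group fit, 7 members passed (2 higher, 5 lower), where 16.8% of all tested genes did (10.9% higher, 5.85% lower): DEFA5, DEFA6, CDX2, HNF4A, LGALS4, PHGR1 and TFF3.

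Further genes of the same programs, in lists set by name with earlier results of these data known, are described by counts. Of 26 other intestinal transcription factors 16 were tested, of which 3 rose and 2 fell with shPcyt2-1 and 2 rose with shPcyt2-2. These shares, 31.25% and 12.5%, were close to the 26.7% and 12.4% of all tested genes. SPIB, an ETS factor of M cells, measured 3.58 and 4.35 FPKM in shNT, 1.49 and 1.37 with shPcyt2-1 and 6.41 and 5.90 with shPcyt2-2. It fell by 1.03 (adjusted p = 0.000937) and rose by 0.53 (0.02), and differed between hairpins by 1.56 (7.07e-05); the rise was lost without shNT replicate 1 (0.063) or shPcyt2-2 replicate 1 (0.12) or 2 (0.053). FOXA3, a forkhead factor of gut endoderm, fell with shPcyt2-1 from 14.8 and 14.4 to 9.01 and 9.04 FPKM (log2 fold change -0.64, adjusted p = 0.00368). KLF6 rose with shPcyt2-1 by 0.63 (0.00278) and PRDM1, which holds back mature absorptive genes in early life, by 0.47 (0.00968), the latter lost without shNT replicate 2 (0.052) or shPcyt2-1 replicate 1 (0.06).

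Of 37 other absorptive and brush border genes 20 were tested, of which 2 rose and 6 fell with shPcyt2-1 and 2 rose and 3 fell with shPcyt2-2; the 3 that fell were KRT8, KRT18 and KRT19. That is 40% and 25% called, beside 26.7% and 12.4% of all tested genes. FXYD3, an ion pump regulator, measured 22.5 and 23.2 FPKM in shNT, 15.4 and 14.0 with shPcyt2-1 and 27.5 and 24.9 with shPcyt2-2, a fall of 0.60 with shPcyt2-1 (adjusted p = 0.00201). TSPAN8, a tetraspanin, and USH1C, the scaffold harmonin of microvilli, fell with shPcyt2-1 by 0.52 (0.00552) and 0.48 (0.00264). PLS1, which encodes the actin bundler plastin 1 of microvilli, rose with both hairpins, from 9.98 and 8.53 FPKM to 15.8 and 13.9 and to 15.6 and 13.7 (0.63 and 0.61, adjusted p = 0.00448 and 0.011). CEACAM1, an adhesion molecule, rose with shPcyt2-1 by 0.58 (0.00534) and CDH17, the liver-intestine cadherin, rose with shPcyt2-2 by 0.50 (0.0212). The shPcyt2-2 calls of PLS1 and CDH17 were lost without shNT replicate 2 (0.06 and 0.10) or shPcyt2-2 replicate 1 (0.10 and 0.11). From this list CEACAM7, AQP8, CA1, CA4, SI, TMIGD1, MS4A12, APOA4 and APOB were listed in no library. Others, among them SLC9A3, ANPEP, DPP4 and SLC26A2, reached the limit for testing, and SLC9A3 fell with shPcyt2-1.

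The secretory lists held few measurable genes, so their counts of 0 to 2 called genes a list are too few to set against the 26.7% and 12.4% of all tested genes. Of 21 other mucin and goblet genes 4 were tested, and TFF2, a trefoil peptide more typical of stomach, fell with both hairpins, from 8.19 and 8.78 FPKM to 6.04 and 6.36 and to 5.52 and 5.87 (-0.40 and -0.50, adjusted p = 0.014 and 0.0123). Those calls were lost without shNT replicate 2 (0.073 and 0.07) and, with shPcyt2-1, without its replicate 1 (0.11) or 2 (0.054), and with shPcyt2-2 without its replicate 1 (0.089). Of 12 other Paneth genes 4 were tested: PRSS2, a trypsinogen, rose by 1.17 with shPcyt2-1 (2.07 and 2.15 FPKM in shNT, 6.73 and 5.30 with shPcyt2-1, adjusted p = 0.000977) and measured 1.24 and 1.59 FPKM with shPcyt2-2, below both controls (-0.37, 0.0912) and lower than with shPcyt2-1 (-1.53, 0.000133), though it has near-identical copies that make its value uncertain, and NOD2, a bacterial sensor, fell by 0.45 (0.0204), a call lost without shNT replicate 2 (0.11), shPcyt2-1 replicate 1 (0.11) or 2 (0.065). Of 22 enteroendocrine and tuft cell genes 6 were tested. Among these NEUROD1, INSM1 and PAX6 passed with neither hairpin and did not pass between hairpins. SYP, a synaptic vesicle protein, measured 0.910 and 1.35 FPKM in shNT, 7.27 and 8.16 with shPcyt2-1 and 0.722 and 0.828 with shPcyt2-2, a rise of 2.04 with shPcyt2-1 (adjusted p = 0.000115). CHGB, a granule protein, measured 0.326 and 0.502 FPKM in shNT, 1.45 and 1.12 with shPcyt2-1 and 0.618 and 0.392 with shPcyt2-2; it reached the limit for testing only through its shPcyt2-1 libraries, so its difference is a description. DCLK1, a tuft cell kinase, rose by 0.63 with shPcyt2-2 (0.00982), which was lost without shNT replicate 2 (0.055) or shPcyt2-2 replicate 1 (0.084).

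Stem cell and Notch genes, unlike the 3 stem cell members, were well represented. Of 24 further stem and progenitor genes 22 were tested, of which 3 rose and 4 fell with shPcyt2-1 and 2 rose with shPcyt2-2, or 31.8% and 9.09%, near the 26.7% and 12.4% of all tested genes. NOTUM, a secreted Wnt inhibitor, measured 129 and 153 FPKM in shNT, 99.8 and 100.2 with shPcyt2-1 and 179.5 and 166 with shPcyt2-2. It fell by 0.49 (adjusted p = 0.0043) and rose by 0.29 (0.0472), and the rise was lost without shNT replicate 1 (0.10) or shPcyt2-2 replicate 1 (0.25) or 2 (0.084) and under median-ratio scaling (0.097). NKD1, a Wnt feedback gene, and ASCL2, a crypt stem cell factor, fell with shPcyt2-1 by 0.38 (0.0101) and 0.42 (0.0212); ASCL2 lost the call without shNT replicate 2 (-0.25, 0.087) or shPcyt2-1 replicate 1 (0.051) or 2 (0.056). CD24, a surface glycoprotein with near-identical pseudogene copies, rose with both hairpins (8.14 and 8.43, 14.9 and 13.8, 14.3 and 11.8 FPKM, adjusted p = 0.00212 and 0.0102), the second call lost without shPcyt2-2 replicate 1 (0.084). CDCA7 and RGMB rose with shPcyt2-1 by 0.38 (0.0248) and 0.36 (0.0273); both calls were lost without shNT replicate 1 (0.098 and 0.055), shPcyt2-1 replicate 1 (0.071 and 0.063) or shPcyt2-1 replicate 2 (0.14 and 0.21), and that of RGMB also without shNT replicate 2 (0.11).

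Of 37 Notch pathway genes other than HES1, 35 were tested: 6 rose and 7 fell with shPcyt2-1, and 1 rose and 2 fell with shPcyt2-2, or 37.1% and 8.57%, beside 26.7% and 12.4% of all tested genes. HEY2, a target of the same family as HES1, measured 3.49 and 3.18 FPKM in shNT, 1.67 and 1.64 with shPcyt2-1 and 3.25 and 3.35 with shPcyt2-2, a fall of 0.70 with shPcyt2-1 (adjusted p = 0.00226). HES7, another relative, fell by 0.51 (0.00879) and RFNG, a glycosyltransferase that modifies Notch receptors, by 0.58 (0.00427). The receptor-cleaving proteases ADAM17 and ADAM10 rose with shPcyt2-1 by 0.58 (0.0016) and 0.42 (0.0267), and DTX2, a ubiquitin ligase, by 0.45 (0.0103). The calls of ADAM10 and DTX2 were lost without shNT replicate 2 (0.13 and 0.053), shPcyt2-1 replicate 1 (0.15 and 0.052) or shPcyt2-1 replicate 2 (0.065 and 0.077).

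**Figure D4:**
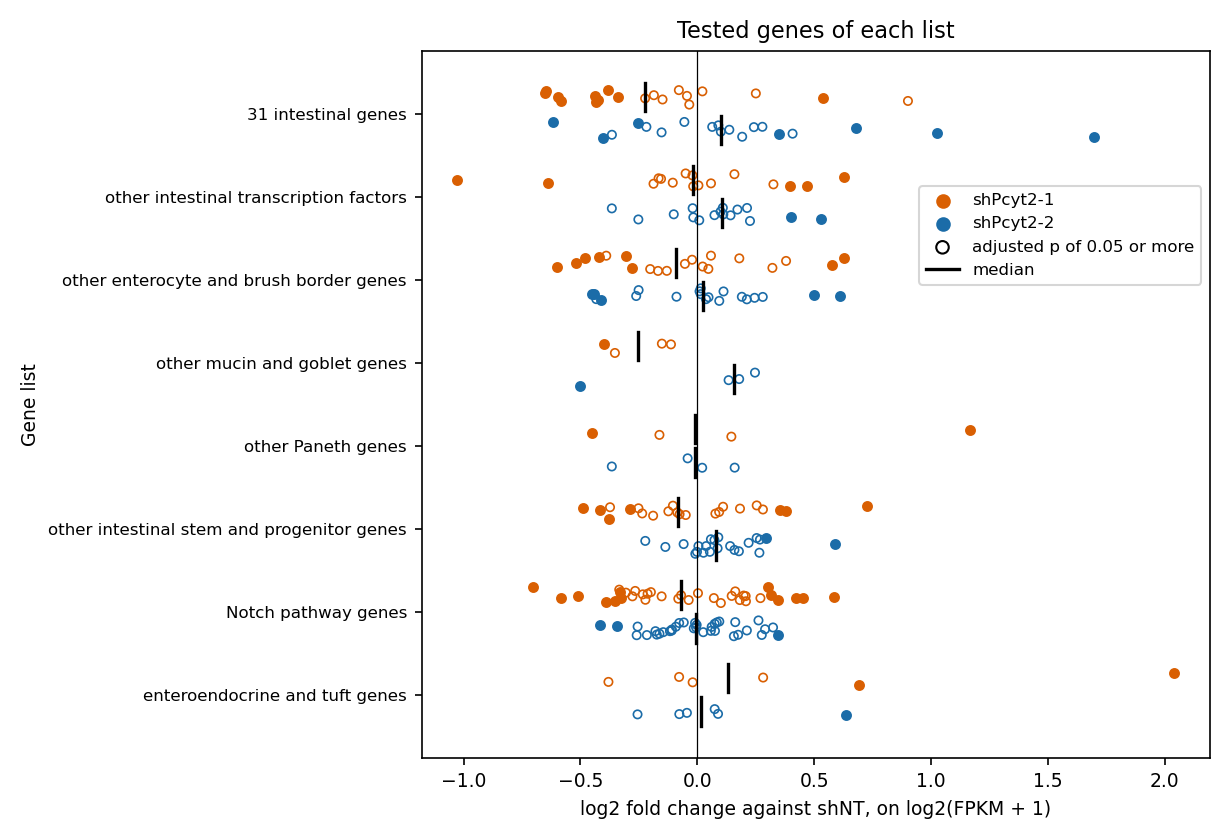
Log2 fold change against shNT, on log2(FPKM + 1), of every tested gene of each list, 1 point a gene, for shPcyt2-1 and shPcyt2-2; filled points passed an adjusted p of 0.05, bars are medians, and vertical scatter within a row has no meaning. The median of the 19 tested members is -0.22 with shPcyt2-1 and 0.10 with shPcyt2-2, and SYP lies farthest right at 2.04.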

How the data were processed

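RNA-Seq values of 6 libraries (2 each of shNT, shPcyt2-1 and shPcyt2-2) were used. Total RNA was extracted with TRIzol, and the labels name both NEBNext Ultra and SMARTer kits; which library used which, and whether counting used strand, was not given in the sources used here. The values the authors deposited were read as FPKM from their range, since no source names the unit; TPM of part of the genes would look alike. The submitters' notes name GRCh38 and also GRCm38 and mm10; the aligner, counter and annotation were not given in the sources used here. Genes absent from a library's table were set to 0. For 115 identifiers that occurred more than once the rows were added up, and 999 groups of identifiers whose values were identical and listed in at least 3 libraries were each taken as 1 gene, which left 19746 genes from 21539 identifiers. Symbols and coordinates came from GENCODE release 29 (GRCh38).

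Genes with a mean of at least 0.5 FPKM (12756) were tested on log2(FPKM + 1) with limma 3.58.1 (R 4.3.3; moderated test with variance trend, Benjamini-Hochberg adjustment over all tested genes, threshold 0.05). The 3 groups shared 1 estimate of spread for the hairpin contrasts; the pooled contrast used 2 groups. The code was tested on simulated data. Members and lists were chosen with earlier results of these data known. All members are reported; of the other lists, up to 3 genes higher and 3 lower were named, those with the largest change among genes that passed and whose libraries lay on 1 side of both controls. A gene that this rule names is not reported here. Other genes were named after their values were seen. Alternatives were pseudocount, expression limit, scaling, repeated rows, variance trend, replicate block and leaving out each library. A fit without a library kept 1 library in that group, so a lost call need not mean a changed value.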

Additional observations from a re-analysis of the deposited data

Results flagged for a closer look

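CDHR2 was marked because 1 knockdown library stood apart: shPcyt2-1 replicate 2 measured 9.05 FPKM against 8.19 to 8.32 FPKM in the other 3 knockdown libraries. It was the 1 gene marked of 19 examined, and chance marks about 1 in 20.

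For 9 members, a count that includes MUC1, the responses to the hairpins were marked as different. The comparison was shPcyt2-2 against shPcyt2-1 (limma, adjusted over all genes tested), each with the higher value for shPcyt2-2. The differences on the log2 scale were 0.36 for CDX1 (limma, adjusted p = 0.0297), 0.60 for CDX2 (0.00113), 0.62 for KLF4 (0.00649), 0.24 for KLF5 (0.015), 0.70 for ELF3 (0.000809), 0.59 for MUC1, 1.02 for MUC13 (9.17e-05), 0.49 for DEFA5 (0.0257) and 0.77 for HES1 (0.00058). MUC1 was tested only because its shPcyt2-2 libraries, the group where it is high, brought its mean to the limit, so its difference is a description. In each of these genes both shPcyt2-2 libraries were above both shPcyt2-1 libraries. This follows largely from picking the genes by this same comparison and adds no support. PCYT2 itself differed between the hairpins by -0.15 (95% interval -0.37 to 0.08, adjusted p = 0.309).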

How the results depend on the processing

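The 2 libraries a group and an unknown read depth limit every call, and scaling between libraries rests on the deposited values. Leaving out each library in turn gave 1160 to 3355 genes called with shPcyt2-1, 125 to 1892 with shPcyt2-2, 1674 to 3783 between hairpins and 0 to 1 pooled, and 5 to 10, 1 to 7, 5 to 11 and 0 members; the lowest gene counts were without shPcyt2-1 replicate 1 for shPcyt2-1 and between hairpins, and without shPcyt2-2 replicate 1 for shPcyt2-2. In those fits these log2 fold changes, none of them called, changed sign: LYZ with shPcyt2-1 (-0.27 to 0.20), CDX2 (-0.11 to 0.0019), ELF3 (-0.0040 to 0.21) and LYZ (-0.15 to 0.33) with shPcyt2-2, PHGR1 between hairpins (-0.15 to 0.21), and, pooled, KLF4 (-0.21 to 0.063), MUC1 (-0.023 to 0.22), MUC13 (-0.024 to 0.34), LYZ (-0.21 to 0.27), CA2 (-0.078 to 0.18) and HES1 (-0.19 to 0.092). Median-ratio scaling turned VIL1 with shPcyt2-1 to -0.050 and pooled LYZ to -0.012. It ended the calls of HES1 and NOTUM with shPcyt2-2 and of RGMB with shPcyt2-1. With no expression limit, where more genes are tested, 1831 genes and 6 members (CDX2, HNF4A, ELF3, MUC13, TFF3 and HES1) were called with shPcyt2-1, 124 genes and 1 member (MUC13) with shPcyt2-2, 2430 genes and 7 members between hairpins, and 7 genes pooled. Calls of other genes named in the report that ended there were those of CDCA7, RGMB, ASCL2, NKD1, ADAM10 and HES7 with shPcyt2-1 (adjusted p from 0.0508 to 0.107) and of SPIB, PLS1, CDH17, TFF2, CD24, NOTUM, DCLK1, KRT8, KRT18 and KRT19 with shPcyt2-2 (0.0627 to 0.159). With no variance trend 2941, 1027 and 3184 genes and 9, 5 and 8 members were called with shPcyt2-1, with shPcyt2-2 and between hairpins; KLF4 with shPcyt2-1, TFF3, HES1 and NOTUM with shPcyt2-2 and KLF5 between hairpins lost their calls, and the cause was not tested. Pooled, a pseudocount of 0.1, a limit of 1 FPKM and the replicate block each gave 0 genes, and the mean of both hairpins in the 3-group fit gave 2142 genes and 7 members, since differences between hairpins then leave the spread. A pseudocount of 0.1 and the highest of repeated rows changed no call of a named gene.

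Equal replicate numbers did not pair the libraries: the differences between replicates 1 and 2 correlated across genes at 0.0027 (shNT and shPcyt2-1), 0.062 (shNT and shPcyt2-2) and 0.19 (both hairpins). With the replicate block, 3884, 2029 and 3869 genes and 9, 7 and 10 members were called with shPcyt2-1, with shPcyt2-2 and between hairpins. KLF4 with shPcyt2-1 (adjusted p = 0.051) and NOTUM with shPcyt2-2 (0.0539) were not called there, and TFF3 between hairpins was (0.0399).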
